A study of Mus musculus with 12 samples.

Results

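The genes described here form a tandem cluster on mouse chromosome 4 that holds the chemokine genes Ccl21, Ccl27 and Ccl19 and the interleukin 11 receptor genes Il11ra. Every gene name in the expression table that starts with Ccl21, Ccl27, Ccl19 or Il11ra was taken, which gave 10 of 55678 names. These were Ccl21a, Ccl21b, Ccl21d, Ccl27a, Ccl19, the pseudogenes Ccl19-ps1, Ccl19-ps2 and Ccl19-ps3, Il11ra1 and Il11ra2. The cluster was picked because its level differs between the mouse strains, so strain differences of these genes are given as a description, without a test.

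RNA was sequenced from medial prefrontal cortex, a frontal cortical area involved in the control of stress responses. The tissue was a 1.5 mm punch taken after behavioural tests. The mice were 9 to 10 weeks old and belonged to 2 strains. These were C57BL/6JmsSlc, called B6 here, and BALB/cCrSlc, called BALB/c. In each strain, 3 libraries came from mice under chronic restraint stress (CRS: 6 h per day in a restrainer, for 21 days) and 3 from controls that were handled without restraint. No genetic change or drug was part of the design, and the sex of the mice is not given in the labels. Libraries are named by strain, treatment and the number in the label. Nothing in the labels says that each number is a separate mouse, so p-values measure the spread between these samples, which may in part be technical.

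Ccl19 and Ccl21 are chemokines that guide T cells and dendritic cells through the receptor Ccr7, and lymph node stroma and lymphatic vessels are their known sources. Mouse Ccl21 is known in a serine form, encoded by Ccl21a, and a leucine form, encoded by other copies. Ccl27 is a chemokine best known from skin epithelium, where it draws T cells through Ccr10. Il11ra encodes the receptor chain that binds interleukin 11 and then signals through the shared chain Il6st, the Jak kinases and Stat3. The region is known for repeated blocks whose number differs between inbred strains.

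The copies are so alike that their RNA is hard to assign. In GENCODE M21 (build GRCm38), 24 of the 840 stretches of 31 bases in the Ccl21d transcript, named Gm21541 there, occurred in no other gene. Of the 807 such stretches of Gm13304, another Ccl21 copy that the naming rule does not catch, all 807 also lay in Ccl21d. Ccl21a had 163 of 840 to itself, while Ccl21b, Il11ra2 and Ccl19-ps3 had 0. The coding sequences of Ccl21d, Ccl21b and Gm13304 were identical over 402 bases. Ccl21d and Ccl21a differed by A84T and T194C, counted from the first coding base with the Ccl21d base first. The stretch with both differences is shown because it is what separates the Ccl21 genes discussed next. It covers coding bases 64 to 214 with the introns left out, at chr4:41903748-41904080 on the plus strand for Ccl21d and chr4:42773523-42773855 on the minus strand for Ccl21a. Capitals mark the differing bases.
Ccl21d: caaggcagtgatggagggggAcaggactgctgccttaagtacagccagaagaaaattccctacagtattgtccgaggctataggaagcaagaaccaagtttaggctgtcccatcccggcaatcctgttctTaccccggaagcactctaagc
Ccl21a: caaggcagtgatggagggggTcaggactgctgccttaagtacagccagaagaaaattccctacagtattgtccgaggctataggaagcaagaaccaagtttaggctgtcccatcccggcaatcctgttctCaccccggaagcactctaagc

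Ccl27a and its nearest copy Gm13306 differed at 3 of 363 coding bases, C177T, G297A and A343C, with the Ccl27a base first. The stretch with the last 2 of these, coding bases 277 to 357, is shown because these genes had the highest mean levels of the cluster in B6. It lies at chr4:41769504-41769584 on the minus strand for Ccl27a and chr4:42158732-42158812 on the plus strand for Gm13306. Il11ra1 and Il11ra2 differed at 13 of 1299 coding bases.
Ccl27a: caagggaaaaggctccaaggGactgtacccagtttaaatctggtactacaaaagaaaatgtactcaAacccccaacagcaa
Gm13306: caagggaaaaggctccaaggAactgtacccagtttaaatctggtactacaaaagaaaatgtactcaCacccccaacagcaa

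The bases just before the start sites of Ccl21d, Ccl21a and Gm13304 were compared in the RefSeq promoter windows (GRCm38.p6), because in B6 Ccl21a was far lower in the table than the other two. Over 249 bases Ccl21d and Ccl21a differed by C141T, and Ccl21d and Gm13304 differed by T143C, counted from the first base shown. Capitals mark both positions, which in Ccl21d lie 110 and 108 bases before the start site. The windows lie at chr4:41903363-41903611 (plus strand), chr4:42773992-42774240 (minus strand) and chr4:42114537-42114785 (plus strand). The letters CATAAATA, searched on both strands, occurred once in each of the 3 windows and in 0.892% of 32851 promoter windows. The letters TATAAA, present in 12.4% of windows, occurred in none of the 3, nor did an NF-kappaB consensus present in 7.25%. The letters searched were not part of the written plan. As the 3 windows are nearly identical, their matches are not independent, and nothing is read from the shares. These matches describe letters and are no evidence of binding.
Ccl21d: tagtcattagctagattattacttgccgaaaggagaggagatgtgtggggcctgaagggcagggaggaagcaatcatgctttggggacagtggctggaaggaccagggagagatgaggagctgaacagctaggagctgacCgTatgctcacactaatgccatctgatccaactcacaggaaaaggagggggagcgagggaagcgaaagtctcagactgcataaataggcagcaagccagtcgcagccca
Ccl21a: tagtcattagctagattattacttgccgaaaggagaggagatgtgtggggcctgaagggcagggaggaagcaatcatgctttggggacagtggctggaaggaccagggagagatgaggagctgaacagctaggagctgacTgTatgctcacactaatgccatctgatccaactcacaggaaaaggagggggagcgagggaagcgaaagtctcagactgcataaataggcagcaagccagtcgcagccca
Gm13304: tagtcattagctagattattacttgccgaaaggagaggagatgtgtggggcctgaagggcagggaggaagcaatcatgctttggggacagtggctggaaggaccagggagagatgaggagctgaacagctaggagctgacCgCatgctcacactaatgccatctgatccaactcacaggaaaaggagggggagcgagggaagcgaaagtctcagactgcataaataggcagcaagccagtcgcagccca

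Levels are in TPM (transcripts per 1000000), a value per transcript length scaled to the same total in every library, so genes can be compared and sequencing depth is unknown. Cortical excitatory neuron markers summed to 1192 to 2469 TPM in the 12 libraries. Markers of neighbouring tissue were uneven. The 6 striatal genes summed to 178 to 2426 TPM in B6 and 82.9 to 324 TPM in BALB/c, and 0 of the 6 were called lower in BALB/c in controls and 5 under CRS (limma), against 3.37% and 5.33% of all genes. Myelin genes, 4 in number, summed to 2161 to 8393 TPM in B6 and 406 to 2687 TPM in BALB/c, with 0 of 4 called. Interneuron markers summed to 214 to 499 and 159 to 273 TPM, astrocyte markers to 288 to 449 and 234 to 338 TPM, and microglial markers to 98.6 to 127 and 100.04 to 125 TPM in B6 and BALB/c. Of these and the excitatory lists, the astrocyte gene Aqp4 was lower in BALB/c in controls (adjusted p 0.0360, limma) and the excitatory neuron gene Neurod6 higher under CRS (adjusted p 0.0238, limma). Their part in the results below was not tested. In bulk tissue, fewer cells of a type and less RNA per cell cannot be told apart.

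Ccl21d was read in all 6 B6 libraries and listed at 0 in all 6 BALB/c libraries. B6 controls 2, 3 and 9 had 8.76, 27.5 and 41.0 TPM, and B6 CRS libraries 12, 13 and 14 had 17.2, 60.1 and 15.9 TPM. The strains did not overlap, and within B6 the highest library lay far above the lowest in each treatment group. As the level in BALB/c is listed at 0 without counts, no fold is given. The submitters' notes name the build GRCm38 for both strains, and which copies BALB/c carries was not examined. Levels of this gene and of the other copies in BALB/c are therefore values on that build.

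The near-identical copy Gm13304, whose RefSeq entry lists a Ccl21 synonym, filled much of the rest of the Ccl21 signal. B6 controls 2, 3 and 9 had 40.6, 43.5 and 66.1 TPM, and B6 CRS libraries 12, 13 and 14 had 24.8, 0 and 46.4 TPM. BALB/c had 0.109 TPM in control 10 and was listed at 0 in the other 5 libraries. B6 CRS 13, where Gm13304 was listed at 0, was also the library with the most Ccl21d. Summed, Ccl21d and Gm13304 came to 49.4, 71.0 and 107 TPM in B6 controls and 42.0, 60.1 and 62.2 TPM under CRS. The coefficient of variation over the 6 B6 libraries was 67.4% for Ccl21d alone and 35.0% for the sum. Ccl21d made up between 17.7% and 100% of this sum in B6, so the split between the copies was far less steady than their total.

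**Figure D1:**
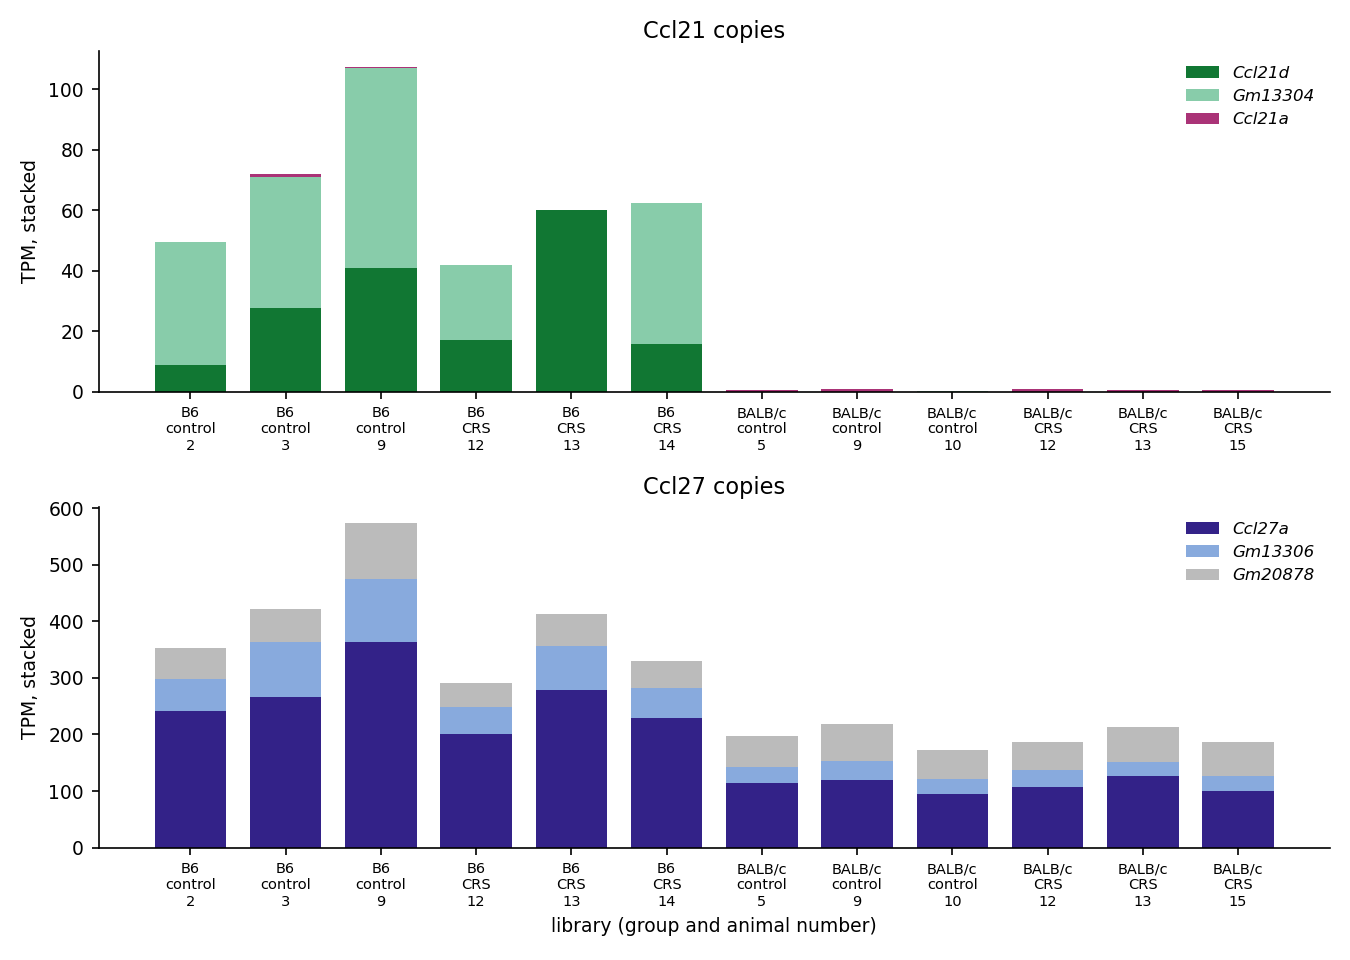
Stacked TPM of the Ccl21 copies (top) and Ccl27 copies (bottom) in each of the 12 libraries, 1 bar per library. In B6 CRS 13 the whole Ccl21 bar of 60.1 TPM is Ccl21d, and the Ccl21 bars of BALB/c stay under 1 TPM, while the Gm20878 part of the Ccl27 bars is of like height in both strains.

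Ccl21a, the copy at the far end of the cluster, was low in both strains. It had 0, 0.995 and 0.350 TPM in B6 controls 2, 3 and 9, and 0, 0 and 0.147 TPM in B6 CRS 12, 13 and 14. BALB/c had 0.527, 0.705 and 0.206 TPM in controls 5, 9 and 10 and 0.769, 0.398 and 0.384 TPM in CRS 12, 13 and 15. It was above 0 in all 6 BALB/c and in 3 of 6 B6 libraries, and the strains overlapped. No library reached 1 TPM. Ccl21b, which has no stretch of its own, was listed at 0 in all 12 libraries.

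Ccl27a had the highest level of the 10 genes and was lower in BALB/c. B6 controls 2, 3 and 9 had 241, 267 and 364 TPM, and B6 CRS 12, 13 and 14 had 202, 278 and 230.0 TPM. BALB/c controls 5, 9 and 10 had 115, 119.6 and 95.3 TPM, and CRS libraries 12, 13 and 15 had 107, 127 and 100.5 TPM. Every BALB/c library lay below every B6 library. B6 averaged 264 ± 56.2 TPM (SD, n = 6). BALB/c averaged 111 ± 11.9 TPM (SD, n = 6), which is 42.0% of the B6 level. On the log2(TPM + 1) scale BALB/c minus B6 was -1.38 in controls and -1.07 under CRS.

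The table splits Ccl27a over 19 rows, apparently 1 per transcript. Of the 15 rows with a B6 mean of at least 1 TPM, 14 had a lower mean in BALB/c, and in 9 all 6 BALB/c libraries lay below all 6 B6 libraries. The BALB/c mean was 8.06% to 138% of the B6 mean over these rows, with a median of 45.7%. These rows were kept by their level in B6, the strain with the higher gene level, and all rows add up to the gene. Nothing is therefore read from these counts beyond the wide range among the rows.

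The Ccl27 copies outside the naming rule did not all follow. Gm13306 had 57.2, 96.6 and 111 TPM in B6 controls and 46.3, 79.1 and 51.8 TPM in B6 CRS, against 25.0 to 33.5 TPM in BALB/c. Gm20878 had 43.3 to 98.9 TPM in B6 and 49.9 to 66.0 TPM in BALB/c. The strains were apart for Gm13306 and overlapped for Gm20878. Gm20878 took 13.7% to 17.2% of the sum of these 3 genes in B6 and 26.6% to 31.5% in BALB/c. Within Gm13306 the largest of 4 rows fell from a B6 mean of 40.5 TPM to 2.41 TPM in BALB/c, while another stood at 24.3 and 23.5 TPM. Since the 3 genes share sequence, the value of each is uncertain. Their sum had a range of 291 to 574 TPM in B6 and 172 to 219 TPM in BALB/c.

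Il11ra1, the neighbour of Ccl27a, had like levels in both strains. B6 controls 2, 3 and 9 had 27.2, 33.0 and 39.3 TPM, and CRS 12, 13 and 14 had 26.0, 31.9 and 23.0 TPM. BALB/c controls 5, 9 and 10 had 29.0, 33.1 and 24.7 TPM, and CRS 12, 13 and 15 had 28.6, 39.8 and 30.8 TPM. All 4 groups overlapped, and the BALB/c mean was 103% of the B6 mean. Its 4 rows with a B6 mean of at least 1 TPM stood at 75.7% to 105% in BALB/c. Il11ra1 and Ccl27a share only their last few bases, on opposite strands (Il11ra1 at chr4:41760443-41769473, Ccl27a at chr4:41769467-41774225, GRCm38.p6). Reads shared between the 2 genes were not examined, and the transcript ends behind the deposited values are not known. Whether strand was used in counting is not said in the sources used here.

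Il11ra2, the second receptor copy, was read at low levels. It had 0.153, 0.596 and 0.920 TPM in B6 controls 2, 3 and 9 and was listed at 0 in all 3 B6 CRS libraries. BALB/c had 0.737, 0.435 and 0.505 TPM in controls and 0.356, 0.376 and 0.377 TPM under CRS. In each strain the CRS libraries lay below the controls. Of all tested genes, 8.33% in B6 and 7.39% in BALB/c were apart in 1 direction or the other, so nothing is read from this. All values were under the 1 TPM filter, so no test was made, and each of the 1269 stretches of 31 bases of Il11ra2 is also in its copy Gm13305. Gm13305 had 0.713 to 2.14 TPM in B6 and 0 to 1.41 TPM in BALB/c.

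Ccl19 was low and mostly higher in B6. It had 1.28, 4.03 and 0.402 TPM in B6 controls 2, 3 and 9 and 1.58, 3.30 and 1.89 TPM in B6 CRS 12, 13 and 14. BALB/c had 0.262, 0.638 and 0.128 TPM in controls and 0, 0.766 and 0.195 TPM under CRS. B6 control 9 lay within the BALB/c range, so the strains overlapped. The pseudogene Ccl19-ps2 had 0.413 to 2.05 TPM in B6, with a median of 1.45 TPM, and 0 to 0.207 TPM in BALB/c without overlap. Ccl19-ps1 was above 0 only in B6 control 3 (3.95 TPM) and B6 CRS 12 (1.87 TPM), and Ccl19-ps3 was listed at 0 in all 12 libraries.

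**Figure D2:**
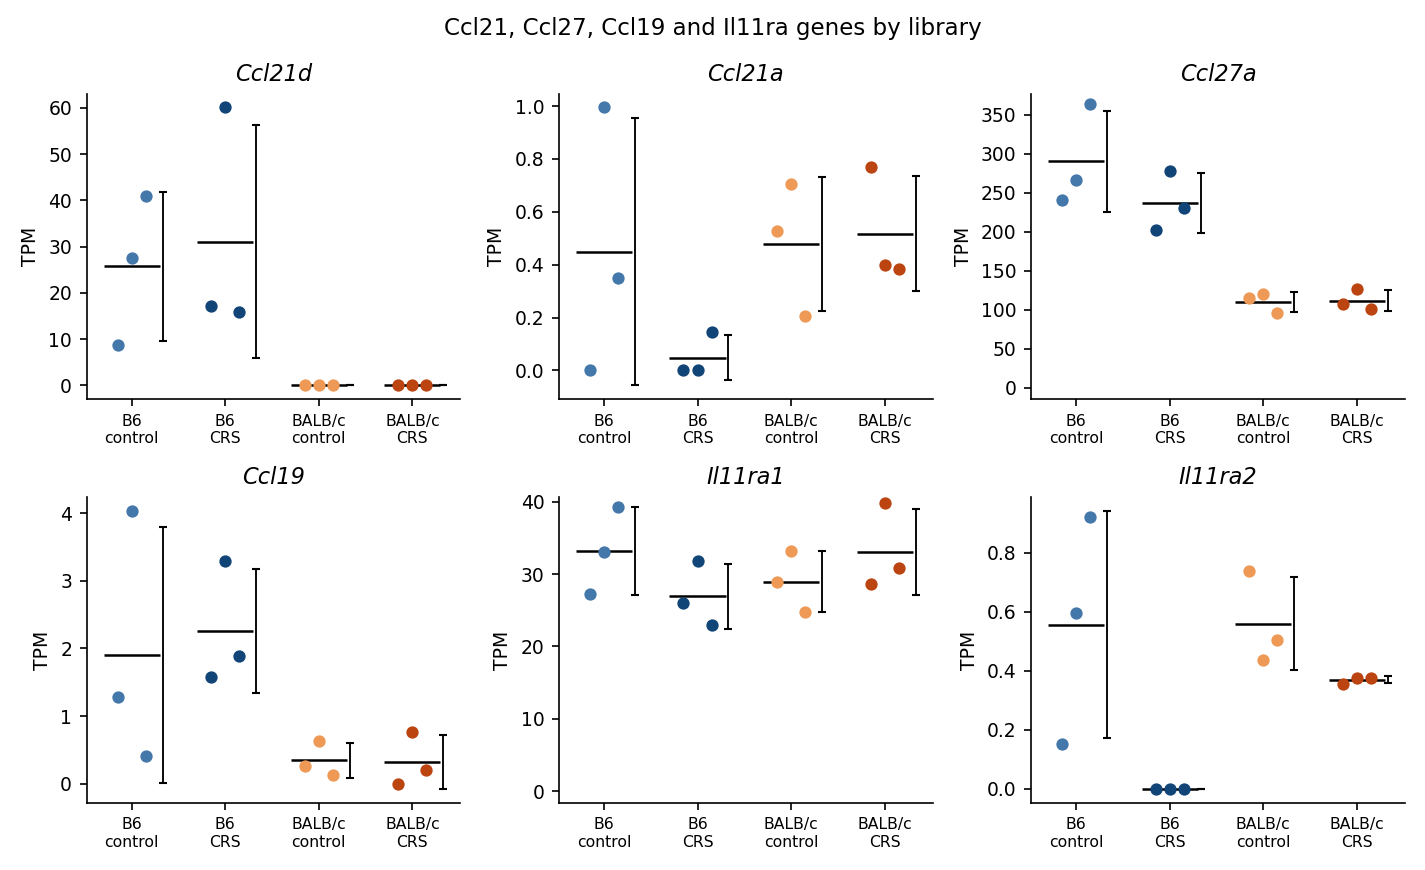
TPM of 6 of the genes by group, with a point per library, the group mean as a line and its SD (n = 3) as a bar beside it. Ccl21d and Ccl27a of B6 lie above all BALB/c libraries, whereas Il11ra1 lies at 23.0 to 39.8 TPM in all groups. The Ccl21a and Il11ra2 axes end near 1 TPM.

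Of the 10 genes, 3 (Ccl21d, Ccl27a and Ccl19-ps2) had all 6 BALB/c libraries below all 6 B6 libraries, and 0 had them all above. Over the 16423 genes tested, 6.94% were below in this way and 2.01% above. Because the cluster was chosen on this contrast, nothing is read from its count. In order of mean TPM, B6 ran Ccl27a, Il11ra1, Ccl21d, Ccl19, Ccl19-ps2, Ccl19-ps1, Il11ra2 and Ccl21a. Il11ra1 and Ccl21d, at means of 30.1 and 28.4 TPM, did not differ beyond their spread there, nor did the genes from Ccl19 downward beyond theirs, each pair of neighbours overlapping. In BALB/c the order was Ccl27a, Il11ra1, Ccl21a, Il11ra2, Ccl19 and Ccl19-ps2, and the last 4 overlapped from neighbour to neighbour.

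Position along chromosome 4 was then compared with the strain difference, using RefSeq positions (GRCm38.p6). The list of genes by position was drawn up after the values had been seen. Between the end of Ccl27a and the start of Ccl21a, 998635 bases apart, lay 10 tested genes other than the named ones. Their median log2 difference, BALB/c minus B6, was -2.33, with a range of -4.54 to -0.04, and 7 of the 10 had a B6 mean of at least 1 TPM while staying under 1 TPM in every BALB/c library, as did 1.87% of all tested genes. These 7 passed the filter only through B6 and had to differ, so nothing is read from the count or the median. Over the 18 tested genes within 300000 bases outside these ends, the median was -0.02 and the range -1.89 to 0.51. Several of the inner genes are copies or pseudogenes that share sequence with each other. The pseudogenes Gm17081 and Gm5859 had 14.2 to 48.7 TPM and 8.41 to 25.5 TPM in B6, against 0 to 0.0318 TPM and 0 in BALB/c.

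A list of 15 neighbouring genes known as single copies was tested between the strains. Galt, a galactose metabolism enzyme gene just beside Il11ra1, had 41.0 to 75.7 TPM in B6 and 55.7 to 69.0 TPM in BALB/c. In the limma test, 0 of the 14 tested passed an adjusted p of 0.05 in controls or under CRS, where 4.73% and 7.7% of all genes were called. The lowest adjusted p among them was 0.0879, for Cntfr, a receptor gene of the same cytokine family, in controls (log2 difference -0.45, SE 0.14). Outside the list, the pseudogene Gm12394 just beyond Ccl21a had 2.22 to 4.97 TPM in B6 and 0.0231 to 0.163 TPM in BALB/c. It passed the filter only through B6, so these levels are a description.

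**Figure D3:**
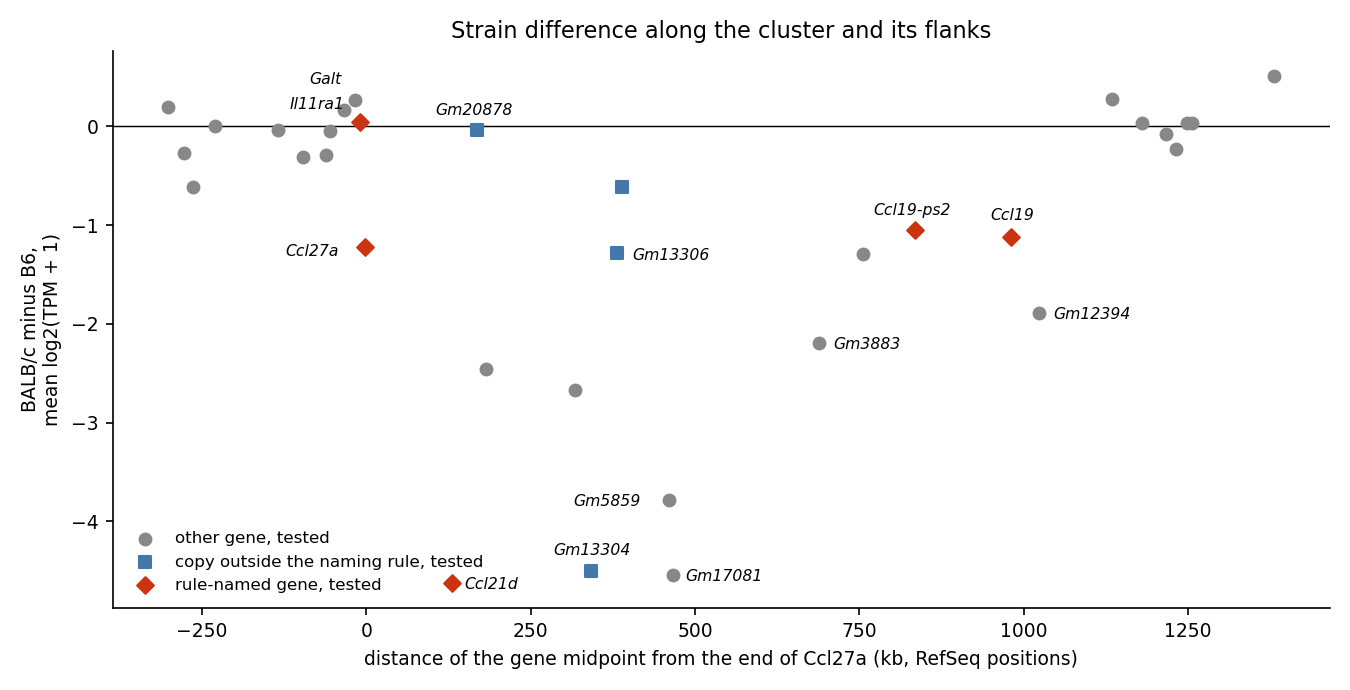
Strain difference (BALB/c minus B6, mean log2(TPM + 1) over 6 libraries each) of tested genes against the distance of the gene midpoint from the end of Ccl27a in kb. Apart from Gm12394 the flanking genes outside the cluster lie from -0.62 to 0.51, and the genes between Ccl27a and Ccl21a lie from -0.04 to -4.62.

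The level of 1 flanking gene was set beside the spread within B6. B6 control 9 was the highest B6 library for Ccl27a (364 TPM), for the Ccl21d and Gm13304 sum (107 TPM) and for Galt (75.7 TPM). Other flanking genes were not all highest there: Rpp25l (18.6 TPM) and Dnai1 (3.23 TPM) had their lowest B6 level in that library, and Vcp, Enho, Cntfr and Stoml2 their highest in B6 CRS 14. Divided by Galt in the same library, a ratio chosen after the values had been seen, Ccl27a was 4.39 to 5.72 in B6 and 1.58 to 2.15 in BALB/c. The coefficient of variation was 9.22% for this ratio and 21.3% for the TPM in B6, and 11.4% and 10.8% in BALB/c. The ratio of the Ccl21d and Gm13304 sum to Galt was 1.02 to 1.41 in B6, and in BALB/c it was 0 or at most 0.0018. For Il11ra1 the ratio was 0.439 to 0.646 in B6 and 0.409 to 0.595 in BALB/c, with overlap.

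**Figure D4:**
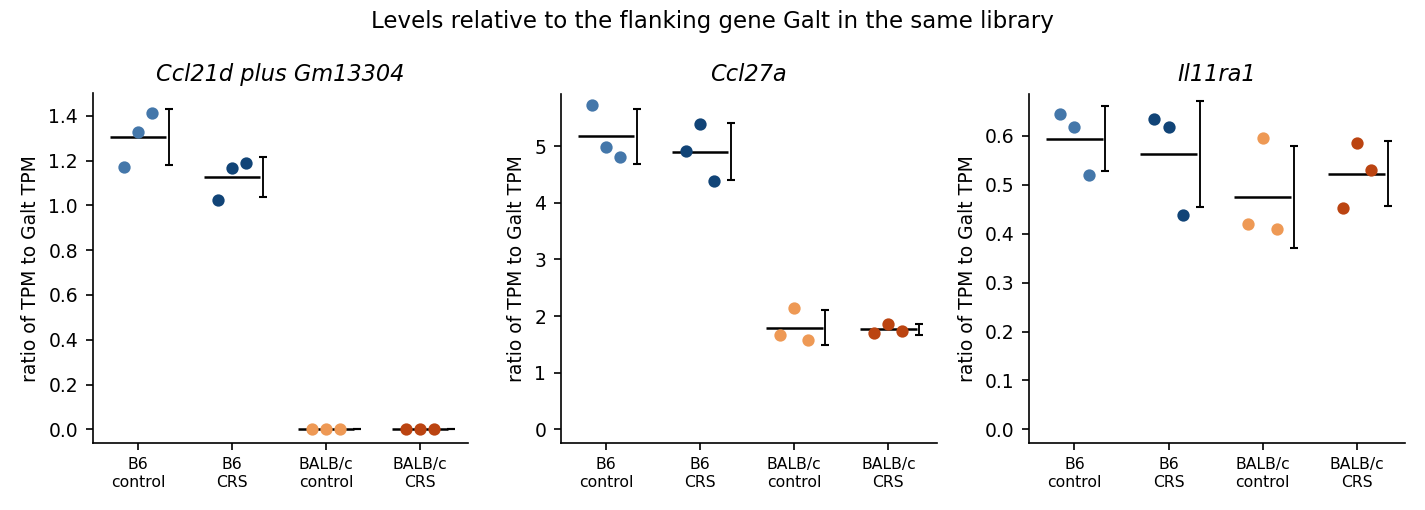
TPM of the Ccl21d and Gm13304 sum, Ccl27a and Il11ra1 divided by that of Galt in the same library, with a point per library, the group mean as a line and its SD (n = 3) as a bar. The B6 ratios of Ccl27a, 4.39 to 5.72, lie above the BALB/c ratios of 1.58 to 2.15, and those of Il11ra1 overlap.

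Marker levels that differ between the strains were set beside these values. B6 control 9, the library highest in Ccl27a, had striatal markers of 178 TPM and myelin genes of 2161 TPM, both inside the BALB/c range. Among the lymphatic endothelial markers, 3 of 7 were tested and the other 4, Ccl21a among them, stayed under 1 TPM in all libraries. Of these 4, Lyve1 and Mmrn1 were at no more than 0.866 and 0.0401 TPM. The 3 tested genes were read in all 12 libraries, Prox1 at 1.43 to 4.67 TPM, Pdpn at 5.16 to 10.993 TPM and Reln at 12.1 to 27.3 TPM. That list summed to 23.3 to 42.7 TPM in B6 and 22.4 to 29.4 TPM in BALB/c, and B6 control 9 had the lowest B6 sum. Reln alone gave 27.3 of the 42.7 TPM in B6 control 2 and 12.8 of the 23.3 TPM in B6 control 9. Whether Reln, Pdpn and Prox1 came from lymphatic vessels here was not tested, so the sum is no measure of such vessels. Of these markers Pdpn was lower in BALB/c under CRS (limma). Meningeal and fibroblast markers, 10 of 10 tested, summed to 46.2 to 82.9 TPM in B6 and 23.8 to 61.7 TPM in BALB/c, and Igf2 was lower in BALB/c in controls (log2 difference -1.62, adjusted p 0.00893, limma). B6 control 9 had the lowest B6 sum of these too. The same library had the highest B6 sum of choroid plexus markers (57.0 TPM) and of excitatory neuron markers (2469 TPM). T cell and dendritic cell markers summed to 4.03 to 25.5 TPM in B6 and 2.28 to 5.03 TPM in BALB/c. Of these, Cd4 had 0.852 to 24.4 TPM in B6 and 0.0863 to 2.88 TPM in BALB/c. It would not have passed the filter on BALB/c libraries alone, so these levels are a description. Cd4 gave 24.4 of the 25.5 TPM in B6 control 2, and it ranked the 6 B6 libraries as the striatal sum did. The T cell gene Cd3e was listed at 0 in all 12 libraries, and Cd3d and Cd8a were at no more than 0.0608 and 0.121 TPM. Choroid plexus markers summed to 7.80 to 57.0 TPM in B6 and 8.72 to 42.0 TPM in BALB/c. Folr1 had 1.70 to 4.50 TPM in B6 CRS and 0 to 0.642 TPM in BALB/c CRS. It passed the filter only with the B6 CRS libraries, where it was high, so these levels are a description. Blood vessel endothelial markers, with 0 of 6 called, summed to 138 to 155 and 123 to 143 TPM. The part of these cells in the strain differences was not tested.

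Chronic restraint was tested for the 5 genes that passed the filter of 1 TPM in at least 3 libraries, Ccl21d, Ccl27a, Ccl19, Ccl19-ps2 and Il11ra1. Ccl21d, Ccl19 and Ccl19-ps2 passed only through B6 libraries. In limma fitted to all 16423 genes, 0 of the 5 were called in B6, in BALB/c, averaged over strains or for the difference between strains, and 0 had an unadjusted p under 0.05. Of all genes, 0% were called in B6, 0.00609% in BALB/c, 0.00609% on average and 0% for the difference. Adjusted p-values of the 5 were 0.967 to 1. Ccl21d, at 0 in all BALB/c libraries, could not be called or fall apart there, so the BALB/c count speaks of the other 4 at most. CRS and control libraries overlapped for each of the 5 in B6 and each of these 4 in BALB/c, against 8.33% of all genes without overlap in B6 and 7.39% in BALB/c.

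For Ccl27a the log2 difference, CRS minus control, was -0.29 in B6 (95% interval -0.65 to 0.08) and 0.02 in BALB/c (-0.35 to 0.39). For Il11ra1 it was -0.29 in B6 (-0.67 to 0.10) and 0.18 in BALB/c (-0.20 to 0.57). The difference between these strain effects for Il11ra1, 0.47, had an interval of -0.07 to 1.01 (adjusted p = 1.00, limma). With the spread of the B6 libraries alone, the standard error in B6 rose from 0.17 to 0.22 for Ccl27a. For Il11ra1 it rose from 0.18 to 0.20. The B6 intervals, which use the spread of both strains, may therefore be too narrow. The intervals are wide enough to hold changes of moderate size in either strain, so a like level under CRS is not shown.

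Ccl21d had a log2 difference of 0.23 in B6 (95% interval -0.90 to 1.35). The BALB/c libraries, all at 0, enter the shared spread of this fit, and the standard error of 0.52 became 0.87 with the spread of the B6 libraries alone. Gm13304 went the other way in B6, at -2.22 (SE 1.01, adjusted p = 1, limma), with B6 CRS 13 at 0. Summed over all Ccl21 copies the difference was -0.42 (SE 0.25, adjusted p = 1, limma). The BALB/c libraries, all near or at 0, enter the shared spread for Gm13304 and for this sum too. Both standard errors may therefore be too small, and they were not computed from B6 alone. The direction therefore depended on how the copies were counted, and no version was called. The copies Gm13306 and Gm20878 had log2 differences of -0.56 and -0.47 in B6 (adjusted p = 1 each, limma). Of the 4 tested copies, Gm13304, Gm13306 and Gm20878 had unadjusted p-values under 0.05 in B6 (limma), as did 4.82% of all genes. All 3 rest on the spread shared with BALB/c, where these copies varied less or were at or near 0. The coefficient of variation was 35.7% in B6 and 11.4% in BALB/c for Gm13306, and 32.8% and 10.6% for Gm20878. Their p-values may therefore be too small, and nothing is read from them. Gm13305 had a log2 difference of -0.01. Ccl19 stood at 0.33 in B6 and -0.05 in BALB/c, and Ccl19-ps2 at -0.25 and -0.08.

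**Figure D5:**
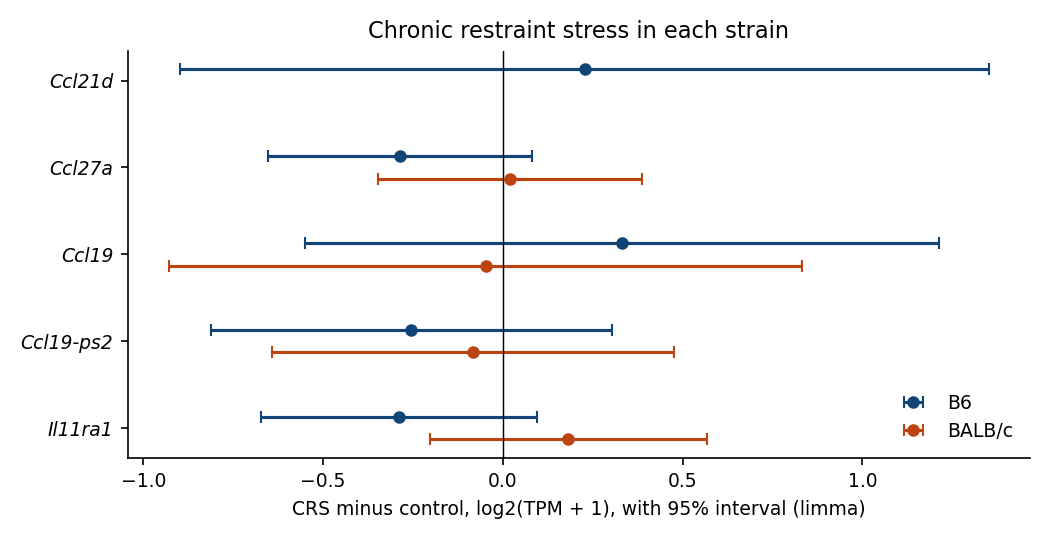
Log2 difference between CRS and control with its 95% interval from limma for the 5 tested genes, B6 in blue and BALB/c in orange. Each interval spans 0, and Ccl21d is drawn for B6 only because all BALB/c libraries are at 0. The intervals use a spread shared by both strains. From the B6 libraries alone the standard error in B6 was larger for each of the 5 genes.

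The receptors of these ligands were barely read. Ccr7, the receptor of Ccl19 and Ccl21, was at 0.043 TPM in B6 CRS 14 and at 0 in the other 11 libraries. Ackr4, the scavenging receptor of the same ligands, and Ccr10, the receptor of Ccl27, were under 1 TPM in all libraries, as was Cxcr3. Il11, the ligand of Il11ra1, was at 0.12 to 1.01 TPM in B6 and 0.12 to 0.65 TPM in BALB/c. The signal chain below Il11ra1 was read in all libraries, with Il6st at 12.7 to 23.8 TPM and Jak1 at 47.2 to 71.6 TPM.

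Of the 12 receptors and signalling partners, 7 were tested, and 1, Stat3, differed between the strains, both in controls and under CRS, where 4.73% and 7.7% of all genes were called. Stat3, the transcription factor activated by Il6 family receptors, had 20.8, 21.8 and 19.9 TPM in B6 controls 2, 3 and 9, and 19.9, 21.3 and 21.9 TPM in B6 CRS 12, 13 and 14. BALB/c had 35.8, 38.7 and 40.6 TPM in controls 5, 9 and 10 and 28.9, 40.6 and 38.1 TPM in CRS 12, 13 and 15. All BALB/c libraries lay above all B6 libraries. The log2 difference was 0.85 in controls (SE 0.13, adjusted p 0.00153) and 0.73 under CRS (SE 0.13, adjusted p 0.00456, limma). The median of the 7 was -0.08 in controls, against -0.10 over all genes. Il6st, Jak1, Jak2, Tyk2, Ptpn11 and the feedback inhibitor Socs3 were not called. Of 12 other ligands and receptors of the Il6 family, 6 were tested and 0 were called between strains, against the same shares of all genes. None of the genes of either list was called for CRS.

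The genes whose levels ran most like those of the cluster over the 12 libraries were found by Pearson's r of log2(TPM + 1), as a description. For Ccl27a they were Gm56667 (r = 0.98), Gm10599 (0.98) and Vmn2r97 (0.98), and for Ccl21d they were Adam18 (0.98), Gm10163 (0.97) and Gm3512 (0.97). Each of these 6 had a lower highest value in BALB/c than its lowest value in B6, and likeness within a strain was not measured. For Il11ra1, which has no strain gap, the nearest were Zfpm2 (0.86), Gm8956 (0.84) and Gm6451 (0.83). Ccl19 was nearest to Dna2 (0.94), Kif20b (0.93) and Smim15 (0.92).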

How the data were processed

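Libraries were TruSeq stranded mRNA, read as 150 base pairs from both ends, per the labels' protocols. The authors deposited TPM values, 1 column per library and 147902 rows with a gene name. The submitters' processing notes name cutadapt 2.9, Salmon and the build GRCm38. The Salmon version, the annotation and the use of strand are not given in the sources used here. TPM keeps no depth, so precision rests on the spread between libraries, and genes at 1 TPM or more numbered 14805 to 15542 per library.

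TPM was summed per name. The 16423 genes that reached 1 TPM in 3 or more libraries entered the test on log2(TPM + 1), where fold changes of low genes are understated. The test was limma 3.58.1 under R 4.3.3 (lmFit, contrasts.fit, eBayes with a trend) with 4 group means, Benjamini-Hochberg adjustment and a threshold of 0.05. It was tested on simulated data. Members and lists were chosen with earlier results of these data known.

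Names in the text followed a written rule: all members, called genes of the receptor, Il6 family, flank and chemokine lists, direct receptors and flanking genes with values, the 3 genes most like each tested member (for Ccl19-ps2 not reported here), and copies outside the naming rule. The rule tied copies by RefSeq names and synonyms; here they were taken by shared sequence instead, a choice made after values had been seen. A copy shared at least 50% of the 31-base stretches of its longest GENCODE M21 transcript with a member. Of 9 such copies, 8 were in the table. Positions and promoter windows are from RefSeq GRCm38.p6. Other pseudocounts, filters, scalings, left-out libraries, a number block and summed copies were tried.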

Additional observations from a re-analysis of the deposited data

How the results depend on the processing

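None of the 20 CRS results of the 5 tested members was called under any of the 345 alternatives run. Among the 20, Ccl21d in BALB/c was at 0 in every library and could not be called unless copies were summed. For Ccl27a and Il11ra1 in B6 the sign was held in all 17 alternatives. It changed in 3 of 17 for Ccl21d in B6 (log2 difference -0.42 to 0.67). Leaving out a BALB/c library cannot change a log2 difference within B6, so those alternatives held the sign by design. Stat3 was called in all 18 alternatives in both treatments, with adjusted p of at most 0.0260. Without the filter on low values, the number of genes called for CRS was 7 in B6, 0 in BALB/c, 2 on average and 2 for the difference between strains. A pseudocount of 0.1 gave 2 in B6 and 0 in BALB/c, and median-of-ratios scaling gave 0 in BALB/c and 2 on average, against 0, 1, 1 and 0 as reported; the cause was not tested. Leaving out 1 library at a time gave 0 to 2 genes for each of these 4 contrasts, 428 (without BALB/c control 10) to 1389 (without B6 control 9) for the strain difference in controls, 777 as reported, and 539 (without B6 CRS 12) to 1852 (without B6 control 9) under CRS, 1264 as reported. The count in controls also moved by over 1.5 times without B6 control 2 or 3 or BALB/c control 5, and that under CRS without B6 CRS 13 or BALB/c CRS 12, 13 or 15.

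Label numbers are shared between strains, but by different mice. Deviations from the group means correlated at -0.242 to -0.029 over the 3 shared numbers, so these do not pair the samples. With the replicate block the strain difference under CRS was called for 750 genes. Read depth could not be judged from TPM, and members under 1 TPM were not tested.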

Other observations

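Other chemokine genes were looked at beside the cluster, as a list of 24. Of these, 10 were tested, and Cxcl2 and Xcl1 were listed at 0 in all libraries. Cx3cl1, the neuronal ligand of the microglial receptor Cx3cr1, had the highest level, at 261 to 421 TPM in B6 and 279 to 353 TPM in BALB/c. Cxcl14 followed at 54.2 to 112 TPM in B6 and 52.3 to 96.3 TPM in BALB/c, and Cxcl12 at 25.2 to 40.7 and 30.6 to 42.9 TPM. The strains overlapped for all 3. In controls 1 of the 10 was higher in BALB/c and 2 were lower, with 4.73% of all genes called. Of the 2 lower ones, Ccl6 would not have passed the filter on BALB/c libraries alone.

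Ccl17, a ligand of Ccr4, was higher in BALB/c. Its mean in controls was 1.17 ± 0.526 TPM for B6 and 5.60 ± 0.948 TPM for BALB/c (SD, n = 3 each). All 6 BALB/c libraries (3.66 to 6.20 TPM) lay above all 6 B6 libraries (0.721 to 3.00 TPM). The log2 difference was 1.62 in controls (SE 0.28, adjusted p 0.00496, limma), called in 18 of 18 alternatives. Under CRS it was 1.09 (SE 0.28, adjusted p 0.0372, limma) and was called in 9 of 18, with adjusted p up to 0.133. The call was lost with a pseudocount of 0.1, without the filter, and without any of B6 control 3, B6 CRS 13 or 14, BALB/c control 10 or BALB/c CRS 12, 13 or 15. Ccl6 and Ccl25 were lower in BALB/c controls, with log2 differences of -1.06 and -0.70 (adjusted p 0.0434 each, limma). These calls held in 4 and 7 of 18 alternatives, with adjusted p up to 0.181 and 0.155, both without BALB/c control 10. Both were lost without the filter, with median-of-ratios scaling, and without any of B6 control 2, B6 CRS 13, BALB/c control 5 or 9, or BALB/c CRS 15. Ccl6 was also lost without B6 control 3, B6 CRS 12 or 14, with lower pseudocounts and with the number block, and Ccl25 also without B6 control 9 or BALB/c CRS 12 or 13. In BALB/c, Ccl6 reached 1 TPM only in CRS 12 (1.24 TPM). It passed the filter through B6, where it was high, so its difference is a description. None of the 10 was called for CRS.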
